A study of Mus musculus with 12 samples.

Results

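Whole-brain RNA of mice homozygous for the h1 allele of Rorb was compared with that of wild type (WT) mice. The comparison took every library with the genotype label Rorbh1/h1, which were 3, and every library with the label wt, also 3, so that it used 6 of the 12 libraries in the series. Each library came from 1 mouse aged 6 weeks, and both groups carried the C57BL/6J strain label. The labels name neither the DNA change of the h1 allele nor sex, litter or cage. The 3 titles of the h1 libraries share a stem, while WT replicate 3 has a title of another form than WT replicates 1 and 2. The other 6 libraries, 3 each from h2 and h4 homozygotes of the same age, carried the strain labels B6(Cg)-Tyrc-2J/J and B6.129S7-Il1r1tm1Imx/J. They entered the estimate of spread and 2 direct contrasts with h1, in which genotype and strain label cannot be told apart.

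The product of Rorb is a nuclear receptor of the retinoic acid receptor-related family, which binds DNA at elements built on the letters AGGTCA with an A/T-rich stretch before them. It is known for its expression in layer 4 of sensory cortex, in the retina and in spinal interneurons, and mice that lack it walk with a high-stepping gait. Oligodendrocytes, the cells that wrap axons in myelin, arise from Pdgfra-positive precursors under the control of Olig1, Olig2 and Sox10, and complete their maturation under Myrf. The membrane layers of myelin are held together by Mbp and by other small proteins, and they contain galactolipids and cholesterol.

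The 6 libraries held between 20168835 and 24000838 expected counts, RSEM's estimates of read pairs per gene, and values below are these counts scaled to the library total (CPM). The tissue label was checked against defining markers. The neuronal gene Snap25 stood between 1891 and 1993 TPM (a scale that corrects for transcript length) and the oligodendrocyte gene Mbp between 4381 and 5883 TPM, while the pituitary gene Prl had no count in any of the 6 libraries. Xist, the RNA of the inactive X chromosome, split the libraries in a way the labels do not give. It stood at 868, 866 and 891 CPM in WT and at 783 CPM in h1 replicate 1, but at 0.557 and 0.833 CPM in h1 replicates 2 and 3, where the Y-linked Ddx3y reached 98.3 and 97.9 CPM. The groups therefore differed in Xist state as well as in genotype, and several results below are also given in a fit with Xist state as a covariate and in a fit of the 7 Xist-high libraries of the series. The latter fit sets h1 replicate 1 alone against 3 WT libraries and assumes that it varies like the other groups.

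Rorb RNA was not lost in h1 brains. Rorb (ENSMUSG00000036192, GRCm38 chr19:18930605-19111196, minus strand) stood at 18.4, 16.3 and 17.1 CPM in WT and at 23.2, 33.1 and 22.6 CPM in h1, from 344 to 713 counts per library. All 3 h1 libraries lay above all 3 WT libraries, and h1 replicate 2 was the highest. The log2 fold change, h1 minus WT, was 0.62 ± 0.17 (SE), with an edgeR adjusted p of 0.242, so that the gene did not pass the threshold of 0.05. DESeq2 gave the same fold change an adjusted p of 0.00295, and a 2-sided exact permutation test of CPM gave p = 0.1, the smallest value that 3 against 3 libraries allow. Without h1 replicate 2 the log2 value was 0.41, and in the Xist-high libraries it was 0.43. On the TPM scale the level of Rorb was 3.71 in WT and 5.5 in h1, means of 3 libraries each. Against h2 the log2 difference was -0.09 (adjusted p = 0.951) and against h4 it was 1.60 (adjusted p = 0.00331). These are sums over the whole gene and do not show which exons were read or whether a protein was made.

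The related receptors did not pass the test. Rora stood at 189 to 203 CPM in WT and 185 to 194 CPM in h1 (log2 -0.03, adjusted p = 0.88), and the repressor Nr1d2, which competes for the same DNA elements, had a log2 value of 0.16 (adjusted p = 0.31). EdgeR called none of the 20 circadian clock genes, of which 7 had an unadjusted p under 0.05, while DESeq2 called Dbp and Tef. Of all 16493 genes tested, 1619 had an unadjusted p under 0.05. By edgeR the nearest were the output factor Dbp, at 45.0, 51.8 and 45.3 CPM in WT and 55.3, 58.4 and 57.6 CPM in h1 (adjusted p = 0.072), and its relative Tef (log2 0.15, adjusted p = 0.10). Of the 16 upper-layer cortical genes, where Rorb itself belongs, none was called by edgeR, 2 had an unadjusted p under 0.05 and DESeq2 called Rorb alone, and the median log2 value of the list was -0.02.

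Across all genes the h1 brain differed little from WT. Of 16493 genes tested, 103 were called at an edgeR adjusted p under 0.05, or 0.625%, of which 69 were higher in h1 (0.418%) and 34 lower (0.206%). The median fold of the called genes was 1.21, 81 of them changed by less than 1.3-fold, and 4 changed by more than 2-fold. The median log2 value over all genes tested was 0.00. Meg3, an imprinted long noncoding RNA, stood at 3972, 4105 and 4040 CPM in WT and at 3647, 3706 and 3630 CPM in h1, a small step (log2 -0.13 ± 0.02, adjusted p = 0.00614) that separated the groups without overlap and had an adjusted p of 0.0573 with Xist state as a covariate. The count of called genes depended on single libraries: without WT replicate 1 it was 24, without h1 replicate 2 it was 22, and without WT replicate 3 it was 166. It was 31 with Xist state as a covariate and 16 in the Xist-high libraries, 6 of which were among the 103.

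**Figure D1:**
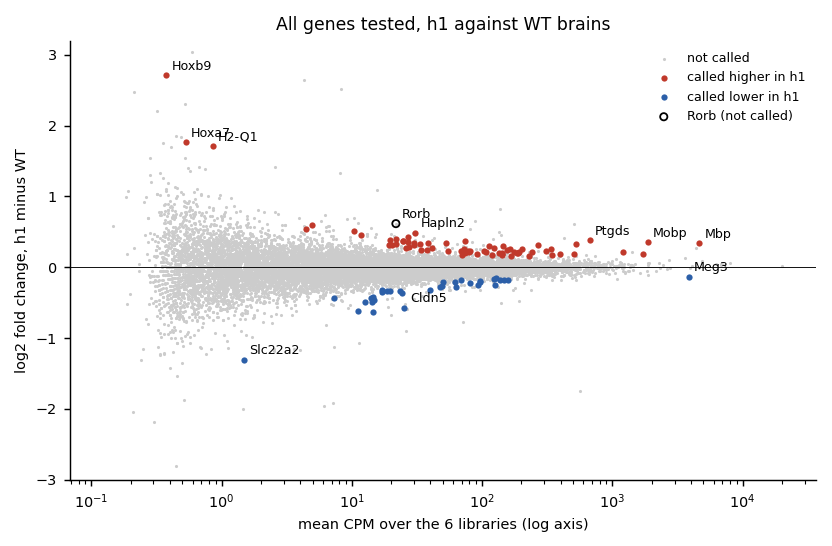
Log2 fold change, h1 minus WT, of each gene tested against its mean CPM over the 6 libraries (log axis); red points are the 69 genes called higher, blue points the 34 called lower and the open circle is Rorb, with 16 genes outside the plotted range. Most called genes lie close to 0, and the 3 low-count genes Hoxb9, Hoxa7 and H2-Q1 and Slc22a2 lie farthest from it.

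Genes of mature, myelinating oligodendrocytes were higher in h1. Of 76 oligodendrocyte genes in 4 lists, 23 were called higher and none lower, against 0.418% of all genes called higher, and the median log2 value of the 76 was 0.14. A gene that stands in several lists was counted once here and in each of its lists below. In 36 of the 76, all 3 h1 libraries lay above all 3 WT libraries, and in none did they lie below, where 6.18% of all genes tested had h1 above and 8.73% had h1 below. In bulk tissue, fewer cells of a type and less RNA per cell cannot be told apart, and the same holds for more of either. The summed level of the 76 genes was 17880, 18760 and 19870 CPM in WT and 22300, 22480 and 21950 CPM in h1.

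The proteins of compact myelin and of the junctions between its layers gave 12 of the 23 calls, from 23 genes tested. Their median log2 value was 0.20, and 0.418% of all genes were called higher. Mobp, a myelin-associated basic protein, stood at 1532, 1698 and 1716 CPM in WT and at 2113, 2172 and 1976 CPM in h1. The lowest h1 library lay above the highest WT library, and the log2 value was 0.35 ± 0.04 (adjusted p = 0.00053). Mbp, which holds the cytoplasmic faces of the membrane together, stood at 3866, 4165 and 4357 CPM in WT and at 5211, 5272 and 5041 CPM in h1 (log2 0.34 ± 0.04, adjusted p = 0.000681). Mal, a lipid-raft protein of myelin, rose by 0.32 on the log2 scale from 429, 472 and 510 CPM in WT to 580, 609 and 565 CPM in h1. Cldn11, which seals the spiral tight junction of myelin, stood at 221, 239 and 257 CPM in WT and at 288, 301 and 295 CPM in h1 (log2 0.31, adjusted p = 0.00116). In each of these genes WT replicate 1 was the lowest of the 6 libraries.

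Mog and Mag, proteins of the outermost and innermost myelin surfaces, rose by log2 values of 0.30 and 0.24. Mog went from 121, 128 and 142 CPM in WT to 158, 163 and 157 CPM in h1. Hapln2, a link protein of the matrix at nodes of Ranvier, had the largest step of the list, from 23.5, 28.0 and 25.1 CPM in WT to 37.3, 36.5 and 33.0 CPM in h1 (log2 0.49 ± 0.08, adjusted p = 0.0021). The others called were Tmem125 (log2 0.46), the tetraspanin Tspan2 (0.26), Pmp22 (0.24), the cytoskeletal protein Ermn (0.18) and Bcas1 (0.16). Cnp, an enzyme of the myelin cytoplasm, did not pass, with a log2 value of 0.18 and an adjusted p of 0.161.

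The enzymes, cytoskeletal and secreted proteins of mature oligodendrocytes gave 9 calls of 25 tested, all higher, against 0.418% of all genes called higher. They include a gene that is also counted in another of the lists. Their median log2 value was 0.19. Ptgds, the prostaglandin D synthase that is also made by the meninges and choroid plexus, stood at 547, 625 and 573 CPM in WT and at 805, 755 and 701 CPM in h1 (log2 0.38 ± 0.05, adjusted p = 0.00053). Ndrg1, a protein linked to lipid trafficking, had 141, 153 and 154 CPM in WT and 180, 185 and 169 CPM in h1 (log2 0.26, adjusted p = 0.000681). The secreted lipocalin Apod rose by 0.26, the actin-severing protein Gsn by 0.25, the arginine-citrullinating enzyme Padi2 by 0.23 and the protease Klk6 by 0.31, all log2 values. Anln, an actin-binding scaffold protein, had a log2 value of 0.36 with h1 replicate 2 at 93.2 CPM and the other h1 libraries at 78.5 CPM each. Trf, the iron carrier transferrin, rose by 0.19, but 63.5% of its annotated exonic bases are shared with the gene Gm20425, and reads of this unstranded kit cannot be assigned to one of them. Ferritin heavy chain, Fth1, in the list of 13 iron genes, rose from 1096, 1170 and 1126 CPM to 1324, 1333 and 1254 CPM (log2 0.22, adjusted p = 0.00419).

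Of 15 oligodendrocyte transcription factors, 3 were called, all higher, against 0.418% of all genes called higher. Olig1 stood at 106, 120 and 113 CPM in WT and at 135, 134 and 138 CPM in h1 (log2 0.27 ± 0.05, adjusted p = 0.00601), and its neighbour and partner Olig2 at 24.8, 27.0 and 23.3 CPM in WT and 30.2, 29.4 and 31.4 CPM in h1 (log2 0.29, adjusted p = 0.0272). Myrf, the membrane-bound factor that activates myelin genes, rose by 0.22 (adjusted p = 0.0244). Sox10 did not follow: it stood at 40.3, 44.0 and 45.6 CPM in WT and 49.6, 39.2 and 43.8 CPM in h1, with overlapping groups (log2 0.04, adjusted p = 0.93). None of the 16 precursor and newly formed cell genes was called by edgeR, DESeq2 or limma-voom. An unadjusted p under 0.05 was found in 2 of them, against 1619 of all 16493 genes tested. The precursor marker Pdgfra had a log2 value of 0.08, and Gpr17, a receptor of cells committed to differentiate, had one of -0.16.

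The lipid genes of myelin did not pass either. EdgeR called none of 14 myelin lipid genes, with a median log2 value of 0.10 and 4 genes at an unadjusted p under 0.05, all higher. Over all 16493 genes tested, 1619 had an unadjusted p under 0.05. DESeq2 called Fa2h, the fatty acid hydroxylase, at 59.6, 69.8 and 62.2 CPM in WT and 82.7, 75.1 and 75.5 CPM in h1 (edgeR log2 0.29, adjusted p = 0.21). Ugt8a, the enzyme that makes galactosylceramide, stood at 175, 176 and 200 CPM in WT and 210, 204 and 232 CPM in h1 (adjusted p = 0.53). None of 22 cholesterol synthesis genes was called by edgeR, DESeq2 or limma-voom, 3 had an unadjusted p under 0.05, and the median was 0.05. Outside the lists, Scd1, which desaturates fatty acids, rose by 0.17, and Acss2, which makes acetyl-CoA from acetate, rose by 0.17, on the log2 scale.

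**Figure D2:**
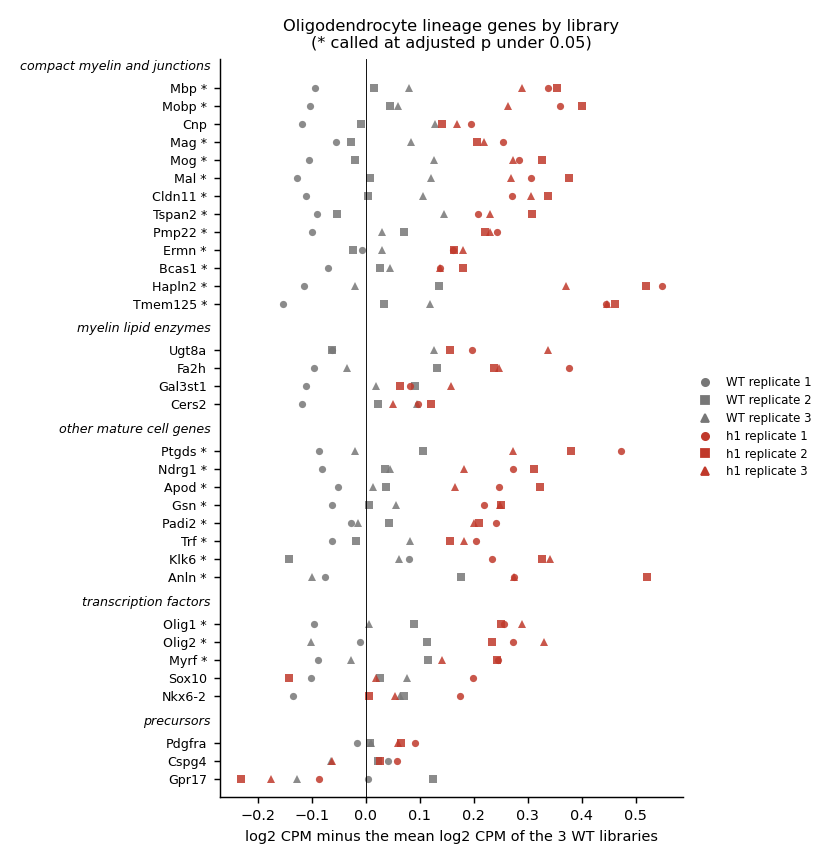
Log2 CPM of 33 oligodendrocyte lineage genes in each of the 6 libraries, minus the mean of the 3 WT libraries (grey: WT, red: h1; circle, square and triangle: replicates 1, 2 and 3). In the called genes, marked with a star, every red point lies right of every grey point, while Sox10, Nkx6-2, Cspg4 and Gpr17 overlap.

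Single libraries decided how many of these genes passed. Of the 23, 8 remained called without WT replicate 1, 9 without h1 replicate 2, 14 without h1 replicate 3 and 15 without h1 replicate 1. The 8 called in each of the 6 fits that left out a library were Cldn11, Hapln2, Mal, Mbp, Mobp, Mog, Ndrg1 and Ptgds. With Xist state as a covariate 14 of the 23 were called, with a median log2 value of 0.27 that equalled the value without the covariate, and in the Xist-high libraries 3 were called, Mbp, Mobp and Ptgds, with a median of 0.26 over the 23. The direction of these values is fixed by the choice of genes whose groups did not overlap. Values of other gene lists that moved with the myelin genes are given here, and their part in the result was not tested. The mean log2 level of 18 Hox genes, which mark spinal cord and hindbrain, stood at -0.02, -0.06 and 0.08 in WT and at 0.34, 0.38 and 0.26 in h1, relative to the WT mean. Low-count genes weigh on this mean: Hoxb9 had a log2 value of 2.71, while the median of the list was 0.11. The summed level of the Hox list was 23.95, 25.01 and 25.29 CPM in WT and 28.95, 29.57 and 28.33 CPM in h1. The mean of 18 astrocyte genes stood at -0.03, 0.03 and -0.01 in WT and at 0.06, 0.05 and 0.06 in h1, without overlap, with 16 of the 18 positive. The mean of 19 excitatory neuron genes stood at 0.04, 0.03 and -0.07 in WT and at -0.07, -0.08 and -0.06 in h1, with overlap, and that of 18 cerebellar genes at -0.04, -0.05 and 0.09 in WT and -0.10, -0.12 and -0.11 in h1.

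The h2 and h4 brains also lay above WT in these genes, in comparisons that share the WT libraries. Relative to the WT mean, the mean log2 level of the 76 genes was 0.16, 0.12 and 0.14 in h1. It was 0.08, 0.14 and 0.16 in h2 and 0.11, 0.08 and 0.16 in h4, beside -0.05, 0.0 and 0.05 in WT. In direct contrasts, h1 exceeded h2 in 3 of the 76 oligodendrocyte genes, Mobp, Mal and Olig2, against 0.722% of all genes called in either direction between h1 and h2. Mobp was higher in h1 than in h2 by 0.23 (adjusted p = 0.00696) and than in h4 by 0.27 (adjusted p = 0.000953) on the log2 scale. Olig2 was higher in h1 by 0.29 and 0.27 (adjusted p = 0.0266 and 0.0149). Between h1 and h4, where 4.64% of all genes were called, 16 of the 76 were higher in h1 and 3 lower. Mbp differed from h4 by 0.22 (adjusted p = 0.00365) and from h2 by 0.16 (adjusted p = 0.0575). Ptgds passed in neither contrast (log2 0.04 and -0.12, adjusted p = 0.869 and 0.137). These contrasts use the same h1 libraries as the comparison with WT.

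Promoters of the called oligodendrocyte genes were searched for AGGTCA, the core of the sites that ROR receptors bind, and for CTGGCAC, one form of the letters bound by Myrf, on both strands and in the 300 bases from 250 before to 50 after each start (RefSeq, GRCm38.p6). The table of promoters held 17 of the 23 genes, and 2 of these 17 (11.8%) held AGGTCA, against 15.1% of the 12200 genes tested that the table holds and 18.1% of all 27025 genes (12.7% and 16.3% of their promoters). CTGGCAC was in 3 of the 17 (17.6%), Hapln2, Mag and Tmem125, against 6.2% of the genes tested and 5.7% of all genes (5.1% and 5.0% of their promoters). The 2 promoters with AGGTCA, of Anln (chr9:22389157-22389456, minus strand) and Gsn (chr2:35266494-35266793, plus strand), and 2 with CTGGCAC, of Hapln2 (chr3:88027462-88027761, minus strand) and Mag (chr7:30914814-30915113, minus strand), are shown 5′ to 3′ with the match in capitals; the first 3 read as the reverse complement.
Anln: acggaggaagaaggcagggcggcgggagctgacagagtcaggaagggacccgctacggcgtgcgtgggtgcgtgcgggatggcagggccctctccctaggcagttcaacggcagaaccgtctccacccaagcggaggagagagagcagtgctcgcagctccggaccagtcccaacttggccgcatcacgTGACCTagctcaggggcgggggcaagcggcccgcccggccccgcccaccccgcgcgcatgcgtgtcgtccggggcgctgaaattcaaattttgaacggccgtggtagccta
Gsn: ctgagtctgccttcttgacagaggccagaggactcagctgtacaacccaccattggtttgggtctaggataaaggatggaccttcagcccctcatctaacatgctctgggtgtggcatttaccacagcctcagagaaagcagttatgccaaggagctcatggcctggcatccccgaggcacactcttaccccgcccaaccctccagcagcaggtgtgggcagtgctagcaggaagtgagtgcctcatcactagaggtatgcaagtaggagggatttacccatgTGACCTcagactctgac
Hapln2: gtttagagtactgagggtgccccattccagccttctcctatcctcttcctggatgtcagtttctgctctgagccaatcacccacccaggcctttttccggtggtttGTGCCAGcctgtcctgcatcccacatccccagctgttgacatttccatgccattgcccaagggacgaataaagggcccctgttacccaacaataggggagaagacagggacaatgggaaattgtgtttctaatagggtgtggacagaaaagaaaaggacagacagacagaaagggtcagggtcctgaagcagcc
Mag: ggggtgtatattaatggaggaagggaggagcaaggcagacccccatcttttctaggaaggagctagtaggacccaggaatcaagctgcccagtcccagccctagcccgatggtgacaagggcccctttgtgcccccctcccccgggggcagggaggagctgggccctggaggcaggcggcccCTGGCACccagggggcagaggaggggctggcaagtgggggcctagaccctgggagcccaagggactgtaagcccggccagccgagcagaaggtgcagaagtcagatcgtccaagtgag
The match lies 61 bases before the start in Anln, 34 bases after it in Gsn, 144 before it in Hapln2 and 68 before it in Mag. Each is a match of letters and no evidence of binding, and a window without a match says only that these letters are not in it. Neither of the 2 Rorb promoters in the table held AGGTCA or CTGGCAC.

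Endothelial genes gave calls in the other direction. Of 30 genes of endothelium and the blood-brain barrier, 3 were lower in h1 and none higher, against 0.206% of all genes called lower, and the median log2 value was -0.10. Negative values were found in 21 of the 30 and positive values in 9. The summed level of the list overlapped between groups, at 1179, 1211 and 1239 CPM in WT and 1196, 1186 and 1202 CPM in h1. Cldn5, the claudin that seals brain capillaries, stood at 31.0, 28.5 and 31.4 CPM in WT and at 22.3, 16.9 and 21.6 CPM in h1 (log2 -0.57 ± 0.10, adjusted p = 0.0115). Cd93, a surface glycoprotein of endothelium, stood at 18.6, 15.5 and 19.4 CPM in WT and at 11.0, 10.2 and 13.0 CPM in h1 (log2 -0.63 ± 0.10, adjusted p = 0.0017). Cdh5, the cadherin of endothelial junctions, fell by 0.34 on the log2 scale (adjusted p = 0.0183). In each of the 3 genes the lowest library was h1 replicate 2.

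Other endothelial genes did not pass. Pecam1 stood at 24.0, 25.5 and 25.4 CPM in WT and at 23.4, 23.1 and 22.2 CPM in h1, and Kdr, the main receptor for VEGF, had a log2 value of -0.45 with h1 replicate 2 far below the rest at 12.02 CPM (adjusted p = 0.27). The lipid transporter Mfsd2a went the opposite way, from 23.5, 28.3 and 23.4 CPM to 31.5, 34.1 and 28.8 CPM (log2 0.34, adjusted p = 0.066). Called outside the list were a pair of genes also known from vessels. Thbd, thrombomodulin, fell by 0.34, and Vegfa, the growth factor that endothelium responds to, fell by 0.28 on the log2 scale, from 72.1, 63.9 and 72.0 CPM in WT to 57.6, 52.7 and 59.9 CPM in h1 (adjusted p = 0.00897). Neither was called with Xist state as a covariate (log2 -0.36 and -0.26, adjusted p = 0.0637 and 0.0759). None of 15 pericyte and smooth muscle genes was called by edgeR, DESeq2 or limma-voom, and 2 had an unadjusted p under 0.05, both lower. That threshold was met by 1619 of all 16493 genes tested, in either direction.

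Cldn5 and Cd93 also separated h1 from the other mutants. Cldn5 was lower in h1 than in h2 by a log2 value of -0.81 (adjusted p = 0.00107) and than in h4 by -0.40 (adjusted p = 0.033), and Cd93 by -0.47 and -0.42 (adjusted p = 0.0193 and 0.0159). Cdh5 did not pass in either contrast (adjusted p = 0.0549 and 0.0632). Without WT replicate 1 only Cd93 of the 3 endothelial genes was called, as was the case with Xist state as a covariate, where Cldn5 had the nearly equal log2 value of -0.56 (adjusted p = 0.10). In the Xist-high libraries none was called, with log2 values of -0.44 for Cldn5, -0.70 for Cd93 and -0.32 for Cdh5.

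Genes of the brain coverings moved in both directions. Of 24 transporters and secreted proteins of meninges and perivascular cells, 4 were lower and 3 higher, against 0.206% and 0.418% of all genes. Slc22a2, an organic cation transporter, had the largest fall, from 1.77, 1.96 and 2.58 CPM in WT to 1.03, 0.836 and 0.667 CPM in h1 (log2 -1.31 ± 0.26, adjusted p = 0.0115). Slc6a13, the GABA transporter that marks meningeal fibroblasts, stood at 15.96, 17.1 and 18.3 CPM in WT and at 13.4, 10.6 and 12.9 CPM in h1 (log2 -0.47, adjusted p = 0.00865). Itih2, a hyaluronan-binding inhibitor chain, fell by 0.61 (adjusted p = 0.00435). In the opposite direction, Slc6a20a, a proline transporter, stood at 21.9, 23.9 and 23.0 CPM in WT and at 33.1, 28.4 and 30.6 CPM in h1 (log2 0.43 ± 0.06, adjusted p = 0.000832), and the secreted phosphoprotein Spp1 rose by 0.35 (adjusted p = 0.00484). Ptgds, described above, was the third that rose.

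The fibroblast matrix of the meninges gave 3 calls of 20, against 0.625% of all genes. Mmp14, a membrane-bound protease that cleaves collagen, fell by 0.49 (adjusted p = 0.0168), and Aebp1, a collagen-binding protein, rose by 0.32 (adjusted p = 0.0173). Mmp14 was called in 3 of the 6 fits that left out a library, losing its call without WT replicate 1 and without replicates 1 and 2 of h1 in turn. Aebp1 was called in 2 of them, those without WT replicate 2 or h1 replicate 2. Neither was called with Xist state as a covariate. The defining fibroblast gene Dcn stood at 27.2, 26.4 and 27.9 CPM in WT and 26.0, 26.4 and 24.5 CPM in h1. The 4 covering genes called lower were 1 without h1 replicate 2 and 2 without h1 replicate 3, and none was called with Xist state as a covariate, where Slc22a2 had a log2 value of -1.09 and Slc6a13 of -0.40. Slc6a20a, Spp1 and Ptgds kept their calls with the covariate and in the Xist-high libraries. Slc6a20a was also called in each of the 14 alternative fits, as were Mbp, Mobp and Ptgds.

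Several of the covering genes had like values in all 3 mutants against WT, comparisons that share the WT libraries. Slc22a2 had log2 values of -1.31 in h1, -1.55 in h2 and -1.44 in h4, Itih2 of -0.61, -0.79 and -0.50, and Slc6a20a of 0.43, 0.55 and 0.53. In the direct contrasts, none of the 3 passed between h1 and h2 or between h1 and h4; for Slc6a20a the log2 differences were -0.12 and -0.10 (adjusted p = 0.57 and 0.407). Mmp14 passed in both, with h1 lower than h2 by -0.55 (adjusted p = 0.00602) and lower than h4 by -0.54 (adjusted p = 0.00317). Aebp1 rose less in h1 than in the other mutants, with log2 values against WT of 0.32 in h1, 0.55 in h2 and 0.62 in h4. Its direct contrast with h4 passed (log2 -0.30, adjusted p = 0.00636) and that with h2 did not (log2 -0.23, adjusted p = 0.0955).

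The genes of retinoic acid synthesis and transport, signals for receptors related to Rorb, gave 3 calls of 19, against 0.625% of all genes. Aldh1a1, a retinaldehyde dehydrogenase, stood at 94.5, 108 and 105 CPM in WT and at 124, 130 and 121 CPM in h1 (log2 0.30 ± 0.04, adjusted p = 0.000681). Its near copy Aldh1a7 could exchange estimated counts with it, but stood between 0.560 and 1.19 CPM. Aldh1a2, the dehydrogenase made in the meninges, stood at 15.1, 16.9 and 18.2 CPM in WT and at 13.3, 9.93 and 12.1 CPM in h1 (log2 -0.49 ± 0.10, adjusted p = 0.0109). Rbp4, the carrier of retinol, went from 8.68, 8.10 and 8.58 CPM to 6.11, 6.41 and 6.17 CPM (log2 -0.43, adjusted p = 0.0406), and was called in none of the 6 fits that left out a library. Aldh1a2 lost its call without h1 replicate 2 (log2 -0.39, adjusted p = 0.137). With Xist state as a covariate Aldh1a1 was called (log2 0.31) and Aldh1a2 and Rbp4 were not (log2 -0.36 and -0.38). Of the receptors, Rxrg had the smallest adjusted p, 0.25, with a log2 value of -0.31.

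**Figure D3:**
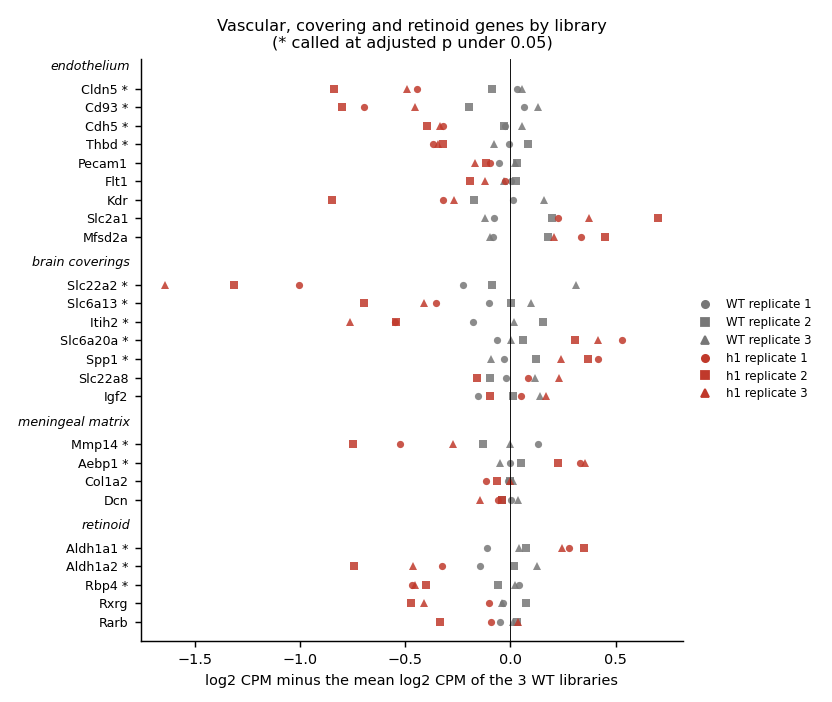
Log2 CPM of 25 endothelial, covering, matrix and retinoid genes in each library, minus the mean of the 3 WT libraries (grey: WT, red: h1; circle, square and triangle: replicates 1, 2 and 3; star: called; Thbd was not in the endothelial list). Cldn5, Cd93, Slc22a2 and Aldh1a2 lie left of all WT points and Slc6a20a, Spp1 and Aldh1a1 right of them, while Igf2, Slc22a8 and Col1a2 overlap with WT.

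Aldh1a1 lies on the same chromosome as Rorb, and the region was described for that reason. Within 10 Mb of Rorb, 106 genes were tested, 4 were higher (Aldh1a1, Psat1, Myrf and Fth1) and none lower, 3.77% against 0.625% of all genes, with a median log2 value of 0.02. Psat1, an enzyme of serine synthesis, stood at 124, 127 and 125 CPM in WT and at 145, 146 and 140 CPM in h1 (log2 0.21 ± 0.03, adjusted p = 0.00229). It was also higher in h1 than in h2 and h4, by 0.19 and 0.18 (adjusted p = 0.00378 and 0.00266), and was called with Xist state as a covariate (log2 0.22). The nearest genes tested were not called: Trpm6, 38 kb from Rorb, had a log2 value of -0.01, Carnmt1 of 0.03, Nmrk1 of -0.01 and Ostf1 of -0.07.

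Low-count genes gave the largest rises. Hoxb9, a gene of thoracic and more caudal spinal cord, had 3, 1 and 2 counts in WT and 10, 21 and 12 in h1, a ratio of 6.86 with an exact 95% interval of 2.91 to 19.73 that covers counting error only (edgeR adjusted p = 0.0118). Hoxa7 had 6, 3 and 6 counts against 21, 13 and 20, a ratio of 3.45 (1.92 to 6.58), and 20.4% of its exonic bases are shared with Hoxaas3. Hoxb8 was better measured, at 3.59, 3.35 and 4.02 CPM in WT and 5.51, 5.20 and 5.13 CPM in h1 (log2 0.54 ± 0.12, adjusted p = 0.0311). The list of 18 Hox genes gave these 3 calls, against 0.418% of all genes called higher. Its median log2 value was 0.11, and 4 members had negative values, among them Hoxb2 at -0.65 (adjusted p = 0.42). DESeq2 called none of the 18, and edgeR none without WT replicate 1, WT replicate 2 or h1 replicate 2. With Xist state as a covariate Hoxa7 was called, and Hoxb8 (log2 0.59, adjusted p = 0.10) and Hoxb9 (adjusted p = 0.083) were not. H2-Q1, a class I histocompatibility gene with near copies that can share its reads, had 9, 4 and 12 counts in WT and 25, 29 and 32 in h1, a ratio of 3.29 (2.09 to 5.37), and an adjusted p of 0.0543 with the covariate. These rises were not particular to h1. Against the same WT libraries Hoxa7 had log2 values of 1.88 in h2 and 1.86 in h4, and H2-Q1 of 1.97 and 2.04. Hoxb9 had 2.65 and 1.56, and Hoxb8 had 0.41 and 0.28. None of these genes passed between h1 and h2 or between h1 and h4.

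Of 19 genes that respond to glucocorticoids, 1 was called higher, against 0.418% of all genes, and all 19 had positive log2 values, with a median of 0.42. Pnpla2, the first lipase of triglyceride breakdown, was the called gene, at 15.03, 19.5 and 16.9 CPM in WT and 21.8, 24.9 and 19.8 CPM in h1 (log2 0.38 ± 0.09, adjusted p = 0.0406). The metallothionein Mt1 stood at 99.5, 126 and 112 CPM in WT and 161, 163 and 147 CPM in h1 (adjusted p = 0.062), and Mt2 at 57.9, 81.4 and 68.7 CPM and 106, 122 and 95.0 CPM (adjusted p = 0.098). The mean log2 level of the list was -0.13, 0.25 and -0.12 in WT and 0.44, 0.73 and 0.28 in h1, so that WT replicate 2 lay close to the lowest h1 library. Pnpla2 was not called without WT replicate 1, WT replicate 3, h1 replicate 1 or h1 replicate 2, nor with Xist state as a covariate. DESeq2 called 4 of the 19 higher, against 88 of the 12293 genes that it tested. Pnpla2 was higher in h1 than in h2 by 0.60 (adjusted p = 0.00107) and than in h4 by 0.37 (adjusted p = 0.017).

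Immediate early genes, which neurons switch on within minutes of firing, lay the other way. Of 25 tested, 2 were lower and none higher, against 0.206% of all genes called lower, with a median log2 value of -0.26. Ier5 stood at 47.1, 44.2 and 41.9 CPM in WT and at 37.4, 33.4 and 35.3 CPM in h1 (log2 -0.32 ± 0.06, adjusted p = 0.00801), and Klf10 fell by 0.37 (adjusted p = 0.0256). Arc, a gene of active synapses, stood at 76.7, 104 and 88.3 CPM in WT and 63.9, 48.0 and 45.1 CPM in h1, without overlap, but with an adjusted p of 0.38. The spread within groups was wide in Fos, at 21.2, 22.6 and 30.3 CPM in WT and 22.8, 10.1 and 13.3 CPM in h1. Neither Ier5 nor Klf10 was called without WT replicate 1 or without h1 replicate 2. With Xist state as a covariate Ier5 was called (log2 -0.35) and Klf10 was not (log2 -0.36, adjusted p = 0.167), and in the Xist-high libraries neither was (log2 -0.25 and -0.23). Of 21 interferon and class I genes, Lgals3bp was called lower (log2 -0.32, adjusted p = 0.0488, and 0.408 with Xist state as a covariate), and 18 of the 21 had negative values.

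**Figure D4:**
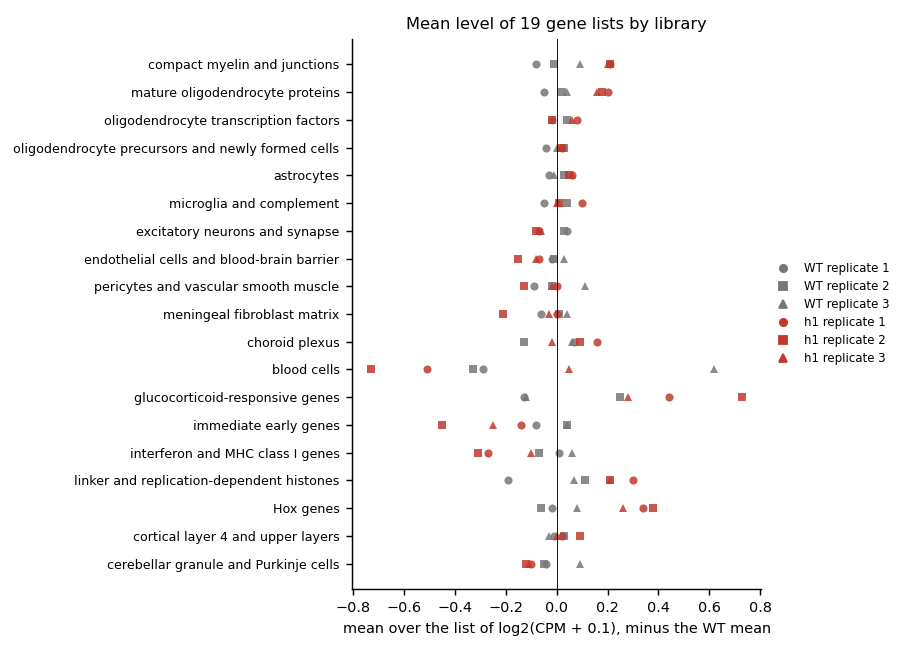
Mean over each of 19 gene lists of log2(CPM + 0.1), minus the WT mean, in each library (grey: WT, red: h1; circle, square and triangle: replicates 1, 2 and 3). The myelin, mature oligodendrocyte, Hox, astrocyte, histone and glucocorticoid-responsive lists have all 3 h1 libraries right of all WT libraries. The endothelial, immediate early, interferon and cerebellar lists have all 3 h1 libraries left of all WT libraries. Glucocorticoid-responsive genes vary most within groups next to blood cell genes, and precursor and upper-layer genes lie near 0.

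Id1, an inhibitor of DNA-binding factors that responds to BMP signals, rose by 0.51 ± 0.10 (adjusted p = 0.00801), from 8.26, 8.24 and 9.42 CPM in WT to 11.3, 13.5 and 11.8 CPM in h1, and was higher in h1 than in h2 by 0.70 (adjusted p = 0.000472). It was the only one called of 19 ID and BMP response genes, against 0.418% of all genes called higher. Ucp2, a carrier of the inner mitochondrial membrane, rose by 0.34 against WT and by 0.47 against h2 (adjusted p = 0.00996 and 0.000472). The muscle-type glycogen phosphorylase Pygm stood at 47.2, 50.3 and 42.6 CPM in WT and at 62.0, 61.9 and 53.4 CPM in h1 (log2 0.35, adjusted p = 0.00456), and Gpd1, which links glycolysis to glycerol, rose by 0.23. EdgeR called none of the 18 astrocyte marker genes, of which 9 had an unadjusted p under 0.05, and DESeq2 called Gfap and Glul. Among all 16493 genes tested, 1619 had an unadjusted p under 0.05. With Xist state as a covariate Pygm (log2 0.37) and Gpd1 (0.24) were called, and Id1 (log2 0.41, adjusted p = 0.152) and Ucp2 (log2 0.35, adjusted p = 0.0503) were not. The linker histone Hist1h1c rose by 0.40 (adjusted p = 0.0311, and 0.0931 with the covariate), and all 10 histone genes tested had positive values, with a median of 0.29.

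The lists of calcium channels and axon guidance each gave 1 gene called lower, against 0.206% of all genes. The T-type calcium channel Cacna1g stood at 134, 146 and 129 CPM in WT and at 122, 107 and 112 CPM in h1 (log2 -0.25 ± 0.06, adjusted p = 0.0488), the only one called of 15 calcium channel genes. Robo3, a receptor that guides commissural axons, fell by 0.44 (adjusted p = 0.0132), the only one called of 20 axon guidance genes. Celsr3, a cadherin of planar polarity that patterns axon tracts, went from 98.6, 107 and 99.6 CPM to 91.1, 82.5 and 81.3 CPM (log2 -0.25, adjusted p = 0.00601). The chromatin regulators Tet3 and Rai1 fell by 0.22 and 0.18 on the log2 scale. Celsr3, Tet3 and Rai1 were in none of the lists. None of these 5 genes was called with Xist state as a covariate, where the adjusted p was 0.266 for Cacna1g, 0.068 for Robo3, 0.083 for Celsr3 and Rai1 and 0.318 for Tet3. EdgeR called no gene in the lists of cortical layers, thalamus, striatum, hippocampus, cerebellum, hypothalamic peptides, monoamine neurons, interneurons, excitatory neurons, microglia, choroid plexus or ependyma, where DESeq2 called Rorb and the cerebellar Itpr1 and limma-voom called none. In the cerebellar list 3 of 18 genes had an unadjusted p under 0.05 and in the excitatory neuron list 5 of 19. The share over all genes tested was 1619 of 16493.

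The 30 called genes with the largest steps, 15 in each direction among those with a mean of at least 1 CPM, were followed through the fits that take Xist state into account. Medians were taken over all 100 called genes with a usable name, 68 that rose and 32 that fell. For the rises the median log2 value was 0.26 in the fit of all libraries, 0.26 with the covariate and 0.26 in the Xist-high libraries. For the falls it was -0.30, -0.26 and -0.24. The genes were chosen as called in the first fit, and all fits share the WT libraries and h1 replicate 1. That choice favours like medians and signs, so they do not show that the steps are independent of Xist state. With the covariate 29 of the 68 rises and 2 of the 32 falls were called. Rtkn2 moved most of the largest rises, from 0.60 to 0.39 with the covariate and 0.24 in the Xist-high libraries; its h1 replicate 1, at 4.68 CPM, lay nearest to WT.

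**Figure D5:**
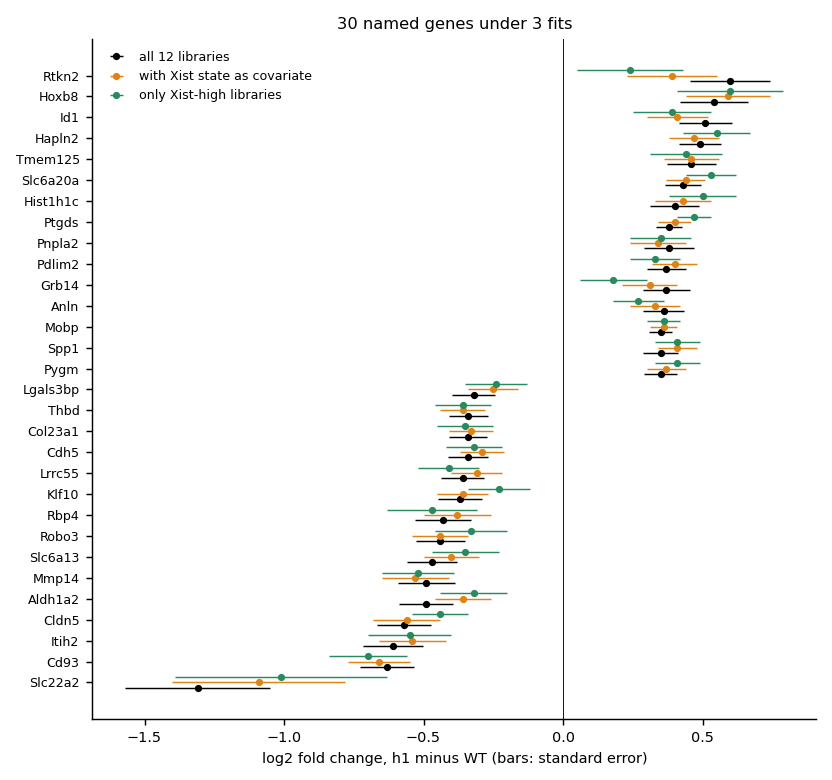
Log2 fold change, h1 minus WT, of the 30 named genes with the largest steps, with standard errors, from the fit of all 12 libraries (black), the fit with Xist state as a covariate (orange) and the fit of Xist-high libraries (green). Every point has the sign of the black one, which the choice of called genes from shared libraries favours. Slc22a2 moves from -1.31 to -1.09 and -1.01, and Grb14 lies closest to 0 in the Xist-high libraries, at 0.18.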

How the data were processed

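Gene-level tables of 12 whole-brain libraries were used, 1 per mouse. Per the labels, libraries were made from polyadenylated RNA with an unstranded kit; the submitters' processing notes name RSEM 1.2.12 and Bowtie2 2.2.0. Build and annotation of the alignment are not given in the sources used. The authors deposited expected counts, which are RSEM's estimated counts per gene (77.7% of values above 0 were whole), and TPM and FPKM values, of which the deposited TPM values are quoted and the deposited FPKM values were not used. Names and positions came from GENCODE M21 (GRCm38) by identifier, for 98.7% of the genes tested.

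Rounded expected counts went into the quasi-likelihood test of edgeR 4.0.16 (R 4.3.3), with its low-count filter (16493 of 38924 genes kept), TMM scaling (factors 0.991 to 1.012), robust dispersions and 1 mean per genotype over all 12 libraries. Every adjusted p is Benjamini-Hochberg over all genes tested, from edgeR unless DESeq2 is named. A gene was called at 0.05. The common biological coefficient of variation was 0.0531. Libraries of 1 group differed by more than sampling noise (chi-square per degree of freedom 2.59 to 4.0), so none was a copy of another. The steps were tested on simulated data.

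The 42 gene lists were described by counts and medians, with no set test. Rorb was given in every library, the 15 largest rises and falls at a mean of at least 1 CPM were taken as the largest steps, up to 6 called members of a list could be given per library, and up to 3 members of a list without a call; called genes with predicted names were counted and not named. Further genes without a call (Cnp, Sox10, Fa2h, Arc, Fos, Pecam1, Kdr, Mfsd2a and some others) and the promoters shown were chosen after their values were seen. Values of some genes that this rule took are left out. The comparison, members and lists were chosen with earlier results of these data known. Alternatives were the 6 libraries alone, DESeq2 1.42.0, limma-voom (limma 3.58.1), no TMM, no filter, a mean of at least 1 CPM, Xist state as a covariate or Xist-high libraries alone, and leaving out each library.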

Additional observations from a re-analysis of the deposited data

How the results depend on the processing

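Against the 103 genes called (69 higher, 34 lower), DESeq2 called 131, limma-voom 106, the fit without TMM factors 87 and that at a mean of at least 1 CPM 100. Without the low-count filter 236 were called (133 higher, 103 lower), which included all 103. Only the WT and h1 libraries gave 145, with 66 lower. Xist state as a covariate left 31 (29 higher, 2 lower), all of them among the 103, and the Xist-high libraries gave 16 (11 higher, 5 lower). Leaving out 1 library gave 22 to 166 genes, 15 to 72 higher and 4 to 97 lower. The 23 oligodendrocyte genes called higher became 14 with the covariate, 3 in the Xist-high libraries and 8 to 22 on leaving out a library. The 3 endothelial genes became 1 with the covariate, 0 in the Xist-high libraries and 1 to 3 on leaving out a library. Rorb passed with DESeq2 (log2 0.62, adjusted p = 0.00295) and in no other fit. Why the counts differ was not tested; the fits without TMM, with limma-voom and with the covariate used the same 12 libraries and 16493 genes. Of the 100 called genes with a usable name, 96 were fitted in all 14 alternatives and 4 (Slc22a2, H2-Q1, Hoxa7 and Hoxb9) in 12 or 13, and each kept its direction where it was fitted, which the choice of groups without overlap favours. Scaling moved the median log2 value of all genes by at most 0.01.

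No paired analysis was possible because the WT titles carry no replicate numbers that match those of h1, and the numbers used here follow the order of the records. Depth limits the low genes most: Hoxb9 rested on 1 to 21 counts per library, and Hoxa7 and H2-Q1 on 3 to 32, so their ratios have wide intervals. With 3 mice a group, Xist state and genotype overlap in part, and the labels name no litters.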

Other observations

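Some gene groups not described above varied widely within groups. Haemoglobin RNA was one of them, with Hbb-bs at 99.5, 117 and 225 CPM in WT and 102, 78.2 and 177 CPM in h1, so that replicate 3 was the highest of each group. The 7 blood cell genes tested all had negative log2 values, with a median of -0.32, and none was called. Plin4, a lipid droplet protein in the glucocorticoid list, stood at 3.13, 9.04 and 1.64 CPM in WT and 8.86, 20.8 and 5.38 CPM in h1 (log2 1.33 ± 0.68, edgeR adjusted p = 0.58). The inducible heat shock gene Hspa1a stood at 9.62, 9.83 and 10.1 CPM in WT and 7.98, 6.41 and 6.67 CPM in h1 (log2 -0.48, adjusted p = 0.0505), and its near copy Hspa1b, with which it can exchange estimated counts, had a log2 value of -0.46 (adjusted p = 0.19).

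The 13 mitochondrially encoded subunits all had positive log2 values, with a median of 0.05, and none was called. Their summed level was 68140, 67780 and 72000 CPM in WT and 69770, 70870 and 72390 CPM in h1, with overlapping groups. Sox9, a transcription factor of astrocytes, stood at 22.1, 22.2 and 18.9 CPM in WT and 17.4, 15.3 and 17.0 CPM in h1 (log2 -0.34, adjusted p = 0.088), while Glul, the glutamine synthetase of the same cells, had a log2 value of 0.21 (adjusted p = 0.11). The calcium release channel Itpr1, abundant in Purkinje cells, stood at 1158, 1176 and 1098 CPM in WT and 1050, 1022 and 955 CPM in h1 (log2 -0.17, adjusted p = 0.053). In each of these 3 genes the groups did not overlap, as in 14.9% of all genes tested.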
